A study of Mus musculus with 10 samples.

Results

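The 10 genes described here are expressed by fibroblasts of the meninges, the membranes that cover the brain, and were chosen by name from 30935 genes in a table of RNA sequencing counts of the mouse cerebral cortex at postnatal day 8. The mice of 5 libraries carried Rbfox1 alleles that lack HAR.505 on both chromosomes (ΔHAR.505/ΔHAR.505, replicates 1, 3, 5, 6 and 8, called knockout here), and those of the other 5 were Rbfox1 +/+ (replicates 2, 4, 5, 6 and 7, called wild type). HAR.505 is one of the human accelerated regions, sequences conserved among mammals that changed rapidly in the human lineage. Samples within a genotype were independent biological samples according to the series' design text, and the labels name no transgene or Cre. The comparison asks whether genes of the brain coverings differ between the genotypes or vary from library to library.

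The meninges consist of the dura, the arachnoid and the pia, and the inner layers follow the surface of the cortex, so a piece of cortex can include them. Their fibroblasts lay down fibrillar collagen, form a transport barrier between cerebrospinal fluid and blood, and secrete signals such as retinoic acid, bone morphogenetic proteins and insulin-like growth factor 2 to the developing cortex. Some of the 10 genes are also expressed by other cells. Collagen and Foxc1 transcripts occur in cells of the vessel wall, and Ptgds transcripts occur in oligodendrocytes and in the choroid plexus.

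Library totals ran from 16479594 to 18166712 counts in knockout and from 17251793 to 22391943 counts in wild type. Rbfox1, the gene whose locus holds the deletion, stood at 229, 191, 209, 196 and 247 CPM in the knockout libraries, and at 205, 212, 233, 238 and 231 CPM in the wild-type libraries, which overlapped (log2 fold change -0.06, SE 0.063, edgeR adjusted p = 0.879). The deleted element is not the coding part of the gene, so this level does not check the genotype labels. Slc17a7, a glutamate transporter gene of cortical excitatory neurons, was at 805 to 1075 CPM in knockout and 867 to 971 CPM in wild-type libraries, and Tbr1, a transcription factor gene of these neurons, was at 104 to 122 CPM in knockout and 119 to 130.1 CPM in wild-type libraries. All 10 members passed the filter on low counts, with 59 to 13204 counts per library. Values are given as CPM, the count scaled to library size, in replicate order. Libraries differed in their content of Ttr, the transthyretin transcript of the choroid plexus, which was 200, 0, 0.490, 5.07 and 80.6 CPM in the knockout libraries and 213, 270, 264, 251 and 278 CPM in the wild-type libraries. The main comparisons are also given without knockout replicates 3, 5 and 6, the libraries with the least Ttr.

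The region upstream of the annotated start is shown for 4 members whose levels moved together in pairs over libraries by Pearson's r. They are the collagen genes Col1a2 and Col3a1, a pair that did not pass by rank, and the signal enzyme genes Ptgds and Aldh1a2. The sequences are the 250 bases before the start in RefSeq (GRCm38.p6, which is not the build of the counts), 5′ to 3′ on the gene's strand. The table held 10 windows for 8 of the 10 members. Capitals mark matches, searched on both strands, to CCAAT, to TATAAA or to the forkhead core GTAAACA; no window shown holds more than 1 match, so none overlap.
Col1a2, chr6:4505368-4505617, plus strand: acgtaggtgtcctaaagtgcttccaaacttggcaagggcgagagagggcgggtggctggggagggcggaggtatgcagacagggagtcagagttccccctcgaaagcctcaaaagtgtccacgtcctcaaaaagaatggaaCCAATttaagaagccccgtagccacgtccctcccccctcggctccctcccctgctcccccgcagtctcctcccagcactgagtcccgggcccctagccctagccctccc
Col3a1, chr1:45311288-45311537, plus strand: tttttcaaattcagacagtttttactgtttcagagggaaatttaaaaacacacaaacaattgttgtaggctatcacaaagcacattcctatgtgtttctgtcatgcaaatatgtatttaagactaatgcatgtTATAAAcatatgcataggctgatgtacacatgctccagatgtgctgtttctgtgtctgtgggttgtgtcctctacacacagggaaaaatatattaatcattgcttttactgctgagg
Ptgds, chr2:25469750-25469999, minus strand: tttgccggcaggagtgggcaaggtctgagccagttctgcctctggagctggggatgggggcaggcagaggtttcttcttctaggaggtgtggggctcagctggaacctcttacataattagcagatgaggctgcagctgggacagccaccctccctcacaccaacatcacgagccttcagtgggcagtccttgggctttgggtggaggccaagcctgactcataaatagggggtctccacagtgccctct
Aldh1a2, chr9:71215539-71215788, plus strand: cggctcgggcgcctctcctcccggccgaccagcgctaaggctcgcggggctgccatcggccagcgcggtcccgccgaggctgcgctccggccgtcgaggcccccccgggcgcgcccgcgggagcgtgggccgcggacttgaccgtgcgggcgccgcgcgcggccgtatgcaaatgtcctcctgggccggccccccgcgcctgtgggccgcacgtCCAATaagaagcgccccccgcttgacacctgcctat

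CCAAT lay 109 bases before the start in Col1a2 and 36 bases before it in Aldh1a2, and TATAAA lay 117 bases before the start in Col3a1. Ptgds held none of the 3 motifs. CCAAT was found in 6 of the 10 upstream windows of members, against 33.8% of 32851 windows of all genes. TATAAA was found in 1 member window, against 12.4% of all windows, and GTAAACA in 0, against 3.17%. The windows of the 4 genes differed in base composition, with 62.0% G and C in Col1a2, 35.2% in Col3a1, 58.4% in Ptgds and 77.6% in Aldh1a2. Neither pair had a motif match in common in these windows.

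No member passed the test between the genotypes, while the members' levels differed up to 2.15-fold between single knockout libraries and up to 1.64-fold between wild-type libraries. Of the 10 members, 0 were higher and 0 lower in the knockout by edgeR's quasi-likelihood test at an adjusted p under 0.05, against 0.381% of 15488 tested genes (59 genes). At an unadjusted p under 0.05 the count was also 0, against 8.71% of tested genes. 5 members had a positive and 5 a negative log2 fold change, with a median of -0.0057 over the members and -0.0021 over all tested genes. Limma-voom and DESeq2 also called 0 members. The 95% intervals of the fold change lay between 0.682 and 1.502 for all 10 members.

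**Figure D1:**
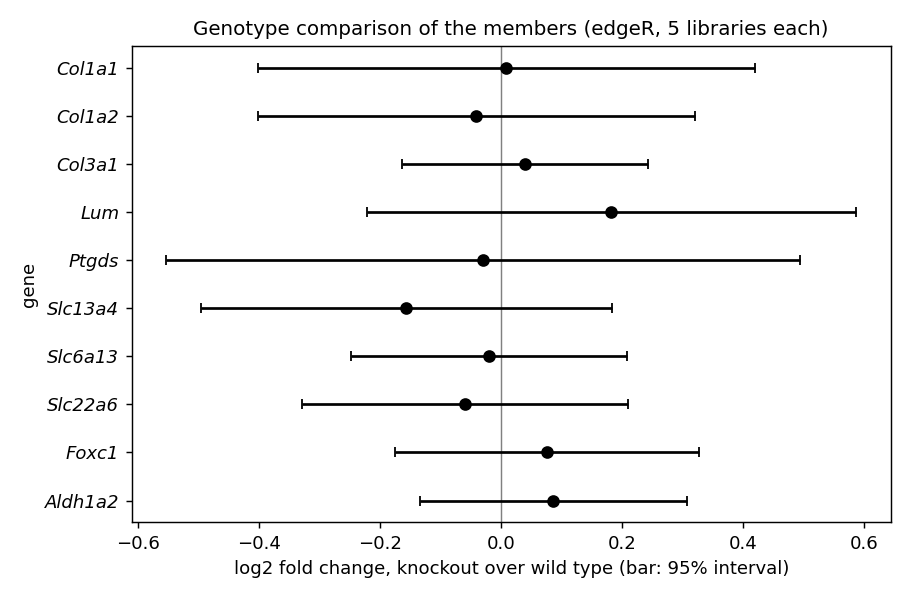
Log2 fold change of each member, knockout over wild type, with its 95% interval from edgeR (5 libraries per genotype). All 10 intervals include 0, and Ptgds (0.682 to 1.41 as a fold) and Col1a1 (0.757 to 1.34) are among the widest.

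The matrix genes come first. Col1a1 and Col1a2 encode the chains of type I collagen, the main fibre of the meninges. Col1a1 stood at 33.9, 50.2, 66.0, 54.4 and 39.0 CPM in the knockout libraries, and at 44.6, 42.6, 45.8, 57.6 and 51.0 CPM in the wild-type libraries. Knockout replicate 1 was the lowest and knockout replicate 5 the highest of all 10 libraries, and every wild-type value lay between them. Col1a1 averaged 48.7 ± 12.7 CPM in knockout and 48.3 ± 6.05 CPM in wild type (SD, n = 5 each). Its log2 fold change was 0.01, with an SE of 0.18 (edgeR adjusted p = 0.997).

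Col1a2 stood at 56.1, 78.8, 107.7, 85.6 and 70.0 CPM in the knockout libraries, and at 72.7, 80.4, 85.9, 90.7 and 79.7 CPM in the wild-type libraries. The same knockout libraries were lowest and highest, and the genotypes overlapped fully (log2 fold change -0.04, SE 0.16, edgeR adjusted p = 0.981). The ratio of Col1a1 to Col1a2 CPM stayed between 0.530 and 0.640 over all 10 libraries, a range of 1.21-fold.

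Col3a1, the gene of type III collagen, which forms fibres together with type I, stood at 49.6, 67.0, 77.9, 66.0 and 56.9 CPM in the knockout libraries. In the wild-type libraries it stood at 57.3, 58.6, 58.8, 66.7 and 67.2 CPM. Its order over the knockout libraries resembled that of Col1a1, and the log2 fold change was 0.04 (SE 0.096, edgeR adjusted p = 0.960). The ratio of Col1a1 to Col3a1 ranged from 0.685 to 0.864.

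Lum encodes lumican, a small leucine-rich proteoglycan that binds collagen fibrils. It was at 3.53, 5.08, 6.18, 7.41 and 4.03 CPM in the knockout libraries, and at 5.04, 3.44, 4.92, 5.62 and 4.07 CPM in the wild-type libraries. Knockout replicate 6 was its highest library and wild-type replicate 4 its lowest, unlike for the collagens. With 59 to 133 counts per library it had the fewest counts of the members, and its log2 fold change of 0.18 had an SE of 0.20 (edgeR adjusted p = 0.886).

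Among the secreted-signal enzymes, Ptgds encodes the lipocalin-type prostaglandin D synthase, which is released into the cerebrospinal fluid. Ptgds stood at 361, 729, 574, 623 and 338 CPM in the knockout libraries, and at 628, 562, 507, 528 and 455 CPM in the wild-type libraries. Knockout replicates 1 and 8 lay below every wild-type library and knockout replicate 3 above every one. Ptgds averaged 525 ± 170 CPM in knockout and 536 ± 64.3 CPM in wild type (SD, n = 5 each; log2 fold change -0.03, SE 0.23, edgeR adjusted p = 0.991).

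Aldh1a2 encodes the retinaldehyde dehydrogenase with which the meninges make retinoic acid. It stood at 15.9, 20.7, 18.1, 18.7 and 13.7 CPM in the knockout libraries, and at 17.4, 17.8, 16.1, 16.1 and 14.8 CPM in the wild-type libraries. As for Ptgds, knockout replicate 3 was highest and knockout replicate 8 lowest, and the genotypes overlapped (log2 fold change 0.09, SE 0.11, edgeR adjusted p = 0.905). The ratio of Ptgds to Col1a1 was 8.68 in knockout replicate 8 and 14.5 in knockout replicate 3, a range of 1.67-fold.

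The transporters move solutes across the arachnoid and pia. Slc13a4, a sodium-coupled sulfate transporter gene, stood at 20.9, 30.7, 35.7, 26.0 and 17.8 CPM in the knockout libraries, and at 29.0, 27.5, 27.2, 31.3 and 30.9 CPM in the wild-type libraries. The wild-type values lay within 1.15-fold of each other, whereas the highest knockout library exceeded the lowest 2.01-fold. Its log2 fold change was -0.16 (SE 0.16, edgeR adjusted p = 0.875).

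Slc6a13, the gene of the GABA and taurine transporter GAT2, stood at 15.03, 22.1, 22.6, 19.7 and 18.3 CPM in the knockout libraries, and at 23.8, 21.8, 17.3, 17.7 and 18.8 CPM in the wild-type libraries. It was the member whose highest value fell in a wild-type library, replicate 2. Slc22a6, which encodes the organic anion transporter OAT1, stood at 10.1, 16.6, 18.0, 14.2 and 11.8 CPM in the knockout libraries, and at 13.5, 16.3, 13.03, 14.1 and 16.7 CPM in the wild-type libraries. Knockout replicates 1 and 8 were its lowest libraries and knockout replicate 5 its highest. The log2 fold changes were -0.02 (SE 0.11) for Slc6a13 and -0.06 (SE 0.13) for Slc22a6.

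Foxc1 encodes a forkhead transcription factor that is required for the meninges to form in the mouse. It stood at 9.94, 13.6, 16.1, 14.0 and 13.2 CPM in the knockout libraries, and at 14.8, 11.7, 10.9997, 13.04 and 12.9 CPM in the wild-type libraries. Knockout replicate 1 was again lowest and replicate 5 highest (log2 fold change 0.08, SE 0.12, edgeR adjusted p = 0.933).

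**Figure D2:**
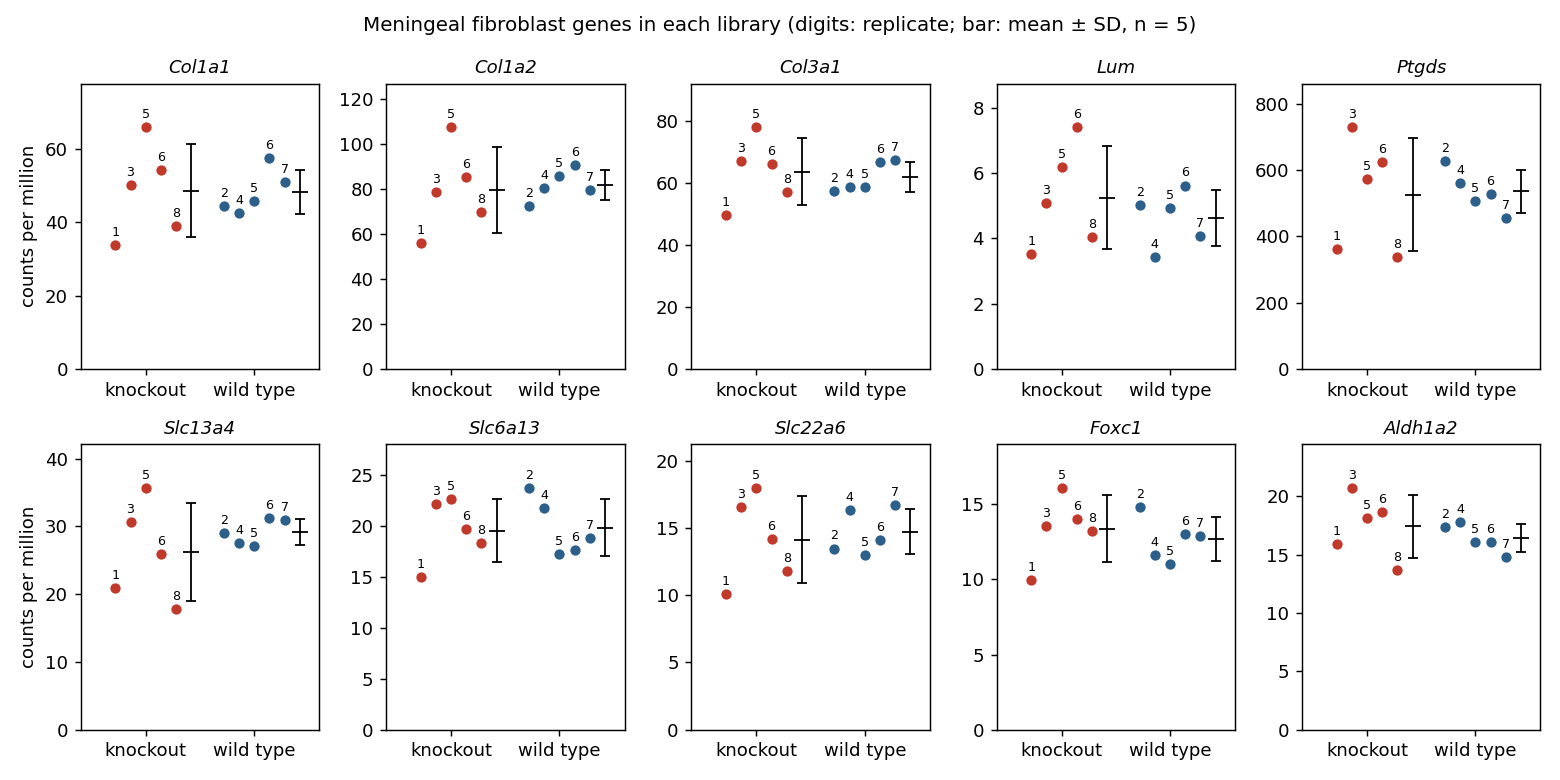
CPM of each member (vertical axes, linear from 0) in the 5 knockout and 5 wild-type libraries; points are libraries labelled with their replicate number, and the bar beside them gives mean ± SD. Knockout replicates 1 and 8 are the lowest knockout points in every panel, as for Col1a1 (33.9 and 39.0 CPM), and the wild-type points lie closer together.

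Per kilobase of transcript, with lengths from the GENCODE M21 transcript matched to each RefSeq accession, Ptgds stood apart at 589 CPM per kilobase on average over the 10 libraries. Col1a2 (15.1), Col3a1 (11.3), Slc6a13 (8.83), Col1a1 (8.18), Slc13a4 (8.08) and Aldh1a2 (7.47) followed, each overlapping its neighbour in this order over the libraries. Slc22a6 (3.62), Foxc1 (2.23) and Lum (2.01) came last. The ranges of Aldh1a2 and Slc22a6 did not overlap, and those of Slc22a6 and Foxc1 and of Foxc1 and Lum did.

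The sample SD over knockout libraries exceeded that over wild-type libraries for each member. The SD of log2 CPM was higher in knockout for 10 of 10 members, against 62.2% of all tested genes, and the median ratio of the SDs was 2.19 for the members and 1.19 for all tested genes. Slc13a4 had the largest ratio, with SDs of 0.40 in knockout and 0.092 in wild type, and Slc6a13 the smallest, with 0.24 and 0.20. In an exact permutation test of the absolute deviations from the genotype medians, 1 member, Slc13a4, had an unadjusted p under 0.05 (p = 0.0476), against 0.458% of tested genes in either direction and 0.362% with the larger spread in knockout. After adjustment over all tested genes 0 members and 0 genes passed. The smallest p that this test can give is 0.00794, so no gene could pass unless a large share of all genes reached it. The adjusted result therefore cannot decide whether the spread of a single member differed. The members covary, so the 10 ratios are not independent observations. Without knockout replicates 3, 5 and 6 the SD was higher in knockout for 6 members.

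**Figure D3:**
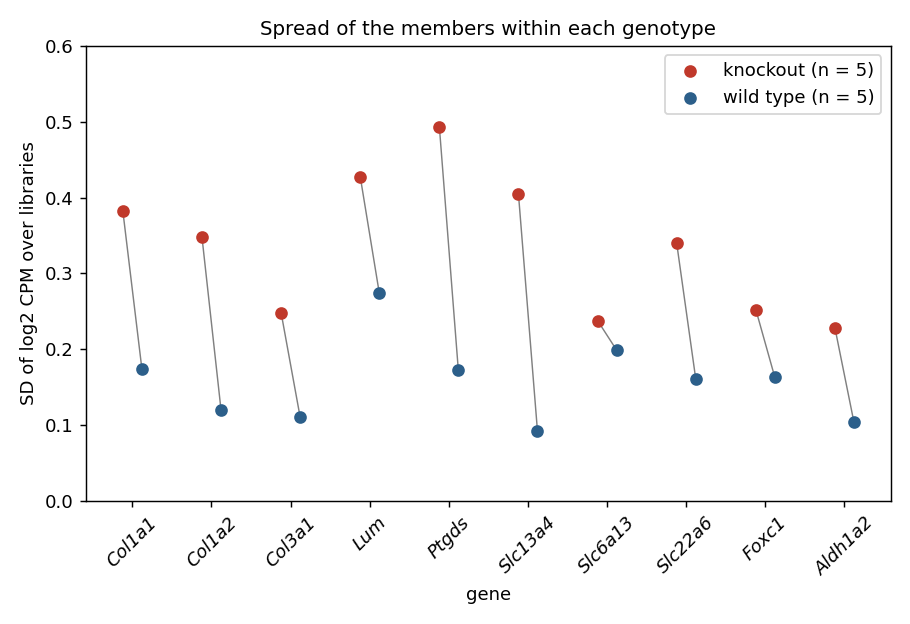
SD of log2 CPM over the 5 libraries of each genotype (vertical axis) for each member; red points are knockout and blue points wild type. The knockout point lies above the wild-type point for all 10 members, by the most for Slc13a4 (0.40 against 0.092).

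The members moved together over libraries. Over the 10 libraries all 45 pairs of members had a positive Pearson r of log2 CPM, with a median of 0.62 and a range from 0.31 to 0.96. The median over all pairs of tested genes was -0.001. Of all pairs of tested genes, 3.40% had an r at or above the members' median. 7 of the 45 member pairs reached an r of 0.8, against 0.392% of all pairs. By a two-sided permutation test of each pair with 100000 resamples and Benjamini-Hochberg adjustment over the 45 pairs, 17 pairs passed by Pearson's r and 7 by Spearman's rho. The values of a library share its scaling factor. The median r was also 0.62 with RLE size factors and with library totals only. The part of a shared factor in these relations was not tested beyond that.

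The tightest pairs were within the collagens and between the signal enzymes. Col1a1 and Col3a1 had r = 0.96 and rho = 0.89 (permutation p = 9.0e-05 and 0.00114, n = 10, adjusted p = 0.00405 and 0.0171). Col1a1 and Col1a2 had r = 0.93 and rho = 0.83 (permutation p = 0.00029 and 0.00441, adjusted p = 0.00652 and 0.0355). Both relations held, at r = 0.89 and 0.78, without knockout replicates 1 and 5, the libraries farthest from the median of Col1a1. Col1a2 and Col3a1 had r = 0.89 (permutation p = 0.00155, adjusted p = 0.0174). By rank this pair did not pass (rho = 0.70, permutation p = 0.0312, adjusted p = 0.108), and its r was 0.58 without knockout replicates 1 and 5. Ptgds and Aldh1a2 had r = 0.88 and rho = 0.90 (permutation p = 0.00061 and 0.00073, adjusted p = 0.00915 and 0.0171), and r was 0.95 without knockout replicates 1 and 8.

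Among the transporters, Slc13a4 and Slc22a6 had r = 0.82 and rho = 0.77 (permutation p = 0.00359 and 0.0114, adjusted p = 0.0242 and 0.0546), with r = 0.65 without knockout replicates 1 and 8. Col3a1 and Slc22a6 had r = 0.85 and rho = 0.89 (permutation p = 0.00229 and 0.00105, adjusted p = 0.0206 and 0.0171), with r = 0.60 without knockout replicates 1 and 5. Slc6a13 and Foxc1 had r = 0.77 and rho = 0.81 (permutation p = 0.0103 and 0.00726, adjusted p = 0.0385 and 0.0467), with r = 0.52 without knockout replicate 1 and wild-type replicate 2. The lowest r was 0.31, between Lum and Slc6a13.

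Several of these relations rested on the most extreme libraries. When the 2 libraries farthest from the median of the first gene were left out, 38 of the 45 pairs stayed positive, with a median of 0.47 and a range from -0.46 to 0.95. Of the 17 pairs that passed by Pearson's r, 12 kept an r of at least 0.5. The relation of Ptgds to Slc13a4 did not hold (r = 0.75 over all libraries and -0.06 without knockout replicates 1 and 8), and those of Foxc1 to Col1a1 and Col3a1 were at 0.22 and 0.22. Without knockout replicates 1 and 8 for every pair, the median r was 0.38, and without knockout replicates 3, 5 and 6 it was 0.51. Against the mean of the other members, Col1a1 had the highest r (0.89) and Aldh1a2 the lowest (0.59).

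**Figure D4:**
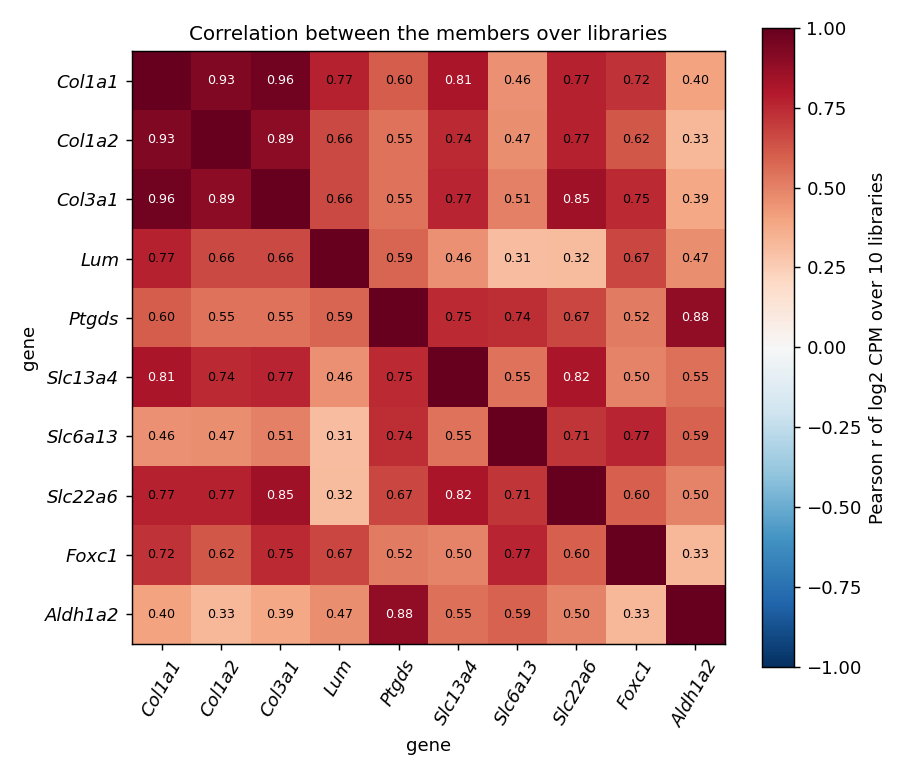
Pearson r of log2 CPM over the 10 libraries for each pair of members (rows and columns are genes, colour and printed value give r). All off-diagonal values are positive, with the highest between Col1a1 and Col3a1 (0.96) and the lowest between Lum and Slc6a13 (0.31).

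The order of the libraries was shared. For each of the 10 members, knockout replicates 1 and 8 were the 2 lowest knockout libraries, an order found in 9.66% of all tested genes. Knockout replicate 1 was the lowest of all 10 libraries for 6 members and knockout replicate 8 for 3. Knockout replicate 5 was the highest of all for 6 members and knockout replicate 3 for 2. Averaged as z-scores over the members, knockout replicate 1 stood at -1.64, replicate 8 at -1.06, replicate 6 at 0.57, replicate 3 at 0.72 and replicate 5 at 1.32, and the wild-type libraries stood between -0.32 and 0.28, with replicate 7 at -0.0048.

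Without knockout replicates 3, 5 and 6, only knockout replicates 1 and 8 remained against the 5 wild-type libraries, and the genotype comparison was different. These are the 2 lowest knockout libraries of each of the 10 members, so lower values of the members follow from which libraries were kept. 2 members were then lower in the knockout, Ptgds (log2 fold change -0.61, edgeR adjusted p = 0.0180) and Slc13a4 (-0.59, edgeR adjusted p = 0.0200), and the median over the members was -0.33. In that comparison 12 genes were called over all. The genotype comparison of the members therefore depends on which knockout libraries are in it, and the 2 calls do not show a genotype difference. Fewer meningeal cells and less RNA of these genes per cell cannot be told apart in bulk tissue.

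Ttr, a gene of the choroid plexus, the tissue in the ventricles that secretes cerebrospinal fluid, followed another order. All 5 knockout libraries lay below all 5 wild-type libraries (exact two-sided permutation test of log2 CPM, p = 0.00794, the smallest p this design can give), while the edgeR value was -2.16 on the log2 scale with an SE of 1.15 and an adjusted p of 0.681. Limma-voom called Ttr lower in the knockout, at -5.99 (SE 1.05, adjusted p = 0.0116). The edgeR value was -0.86 (adjusted p = 0.757) without knockout replicates 3, 5 and 6, and -3.56 (adjusted p = 0.451) without knockout replicate 1. With no Ttr count in knockout replicate 3, a level of up to 0.165 CPM (3 counts) is allowed there by counting error. Within the knockout libraries, replicates 1 and 8 had the most Ttr, 200 and 80.6 CPM, and the least of every member. Replicates 3, 5 and 6 had 0, 0.490 and 5.07 CPM of Ttr and more of every member. The wild-type libraries, at 213 to 278 CPM of Ttr, lay between these knockout libraries in the average of the members. Since the libraries fall into separate clusters of Ttr level, no correlation of Ttr with the members is given.

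The ratio of Ttr to each member was compared directly. The mean log2 ratio of Ttr to Col1a1 was -3.09 in knockout and 2.40 in wild type, a difference of -5.49 (exact two-sided permutation p = 0.0397). The genotypes overlapped in this ratio. Knockout replicate 1 had 200 CPM of Ttr beside 33.9 CPM of Col1a1, a higher ratio than in wild-type replicate 2 (213 beside 44.6 CPM). The knockout mean was low mainly through replicates 3, 5 and 6, with 0, 0.490 and 5.07 CPM of Ttr. Over the members the difference between the genotype means ranged from -5.66 for Lum to -5.31 for Slc13a4. All 10 ratios had an adjusted p under 0.05 over all tested genes, between 0.0191 and 0.0486. The same held for 98.1% of the tested genes other than Ttr, so the count says nothing particular about the members. The count of 10 was kept without knockout replicate 1 and was 0 without knockout replicate 3, 5, 6 or 8 or any 1 wild-type library, where p was at most 0.0952. The median difference over the members, -5.48, was -0.68 without knockout replicates 3, 5 and 6 and between -6.88 and -4.03 with 1 library left out. With 0 Ttr counts in knockout replicate 3 its size also depends on the prior count, at -5.93 with a prior of 0.5 and -5.14 with a prior of 5.

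Of the 16 tested choroid plexus genes all had a negative log2 fold change, with a median of -1.17. 2 of them fell in the knockout, Clic6, a chloride channel family gene (-1.83, SE 0.32, edgeR adjusted p = 0.00989), and Tmem72, a membrane protein gene (-1.60, SE 0.30, edgeR adjusted p = 0.0193), against 0.194% of all tested genes that were lower. Folr1, a folate receptor gene, was at -1.20 (SE 0.31, edgeR adjusted p = 0.0960). Without knockout replicates 3, 5 and 6 the median of the list, 17 genes of which then passed the filter, was -0.51 and 0 were called, with Clic6 at -1.06 (adjusted p = 0.177) and Tmem72 at -0.94 (adjusted p = 0.253). With 1 library left out, Clic6 was called in every fit, and Tmem72 was not called without knockout replicate 3 (adjusted p = 0.0965), wild-type replicate 4 (0.0538) or wild-type replicate 5 (0.0575). The count of called choroid plexus genes was 7 without knockout replicate 1 and 1 to 3 without any other single library. With the mean of the choroid plexus list as a covariate, the median log2 fold change of the members was -0.54 and 0 of them were called by edgeR, where 7 had an unadjusted p under 0.05. This covariate averages genes that all had a negative log2 fold change, so it overlaps with genotype. That fit cannot separate the 2, and its values do not show a fall of the members at equal choroid plexus content. The part of choroid plexus content in the members' values was not tested.

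**Figure D5:**
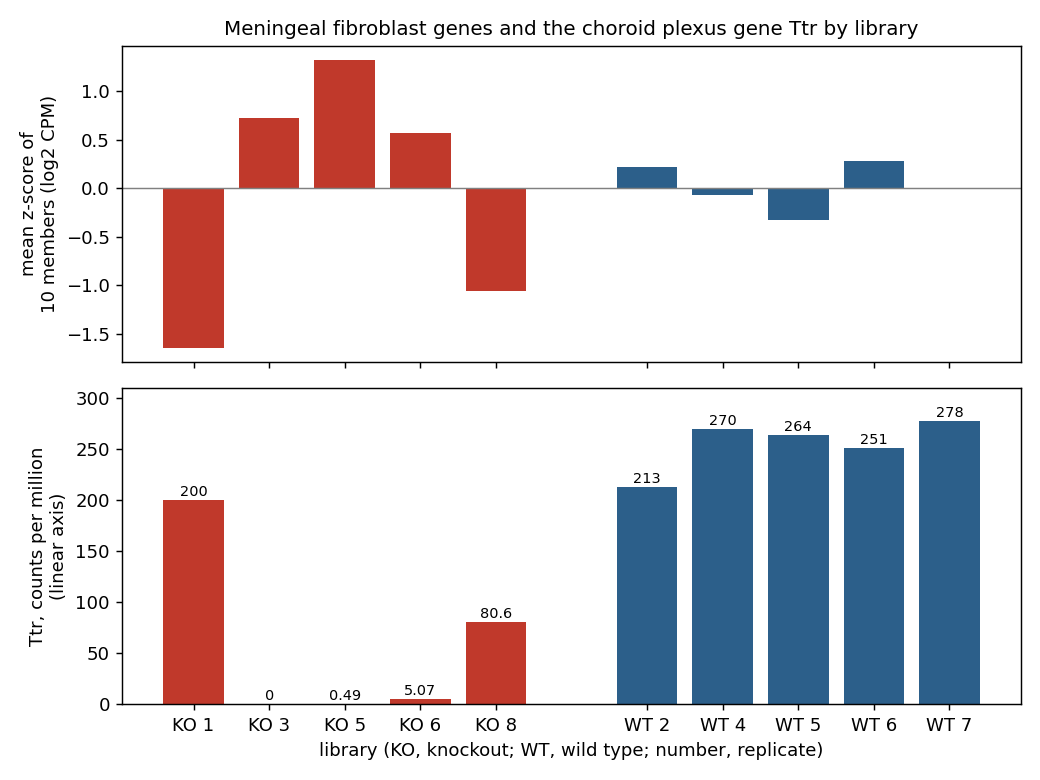
Mean z-score of log2 CPM over the 10 members (top) and Ttr in CPM on a linear axis (bottom) in each library; red bars are knockout and blue bars wild type. Knockout replicates 1 and 8 have the lowest member scores (-1.64 and -1.06) and the most Ttr of the knockout libraries (200 and 80.6 CPM).

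Other meningeal fibroblast genes had a positive relation to the members' mean, which was weak in some. All 25 further genes on that list were tested, and 0 passed the edgeR test over all genes, with a median log2 fold change of 0.03. All 25 had a positive r with the mean of the members over the 10 libraries, with a median of 0.62, against 48.8% of genes outside the members and a median of -0.01. The r ran from 0.0008 for Dpp4 to 0.93 for Igf2 and was 0.15 for Cemip, so not every gene on the list followed the members. The summed level of the list was lowest in knockout replicate 8 (879 CPM) and highest in knockout replicate 3 (1246 CPM), and ran from 1015 to 1121 CPM in the wild-type libraries. Nov (mean 307 CPM in knockout and 272 CPM in wild type, r = 0.43) and Igf2 (279 and 291 CPM) contributed most to this sum. Dpp4, a peptidase gene (log2 fold change 0.42, SE 0.15), Igfbp2, which encodes a binding protein of insulin-like growth factors (-0.13, SE 0.056), and Cemip, a hyaluronan-binding protein gene (0.16, SE 0.091), had the smallest p of the list, with edgeR adjusted p-values of 0.345, 0.474 and 0.667.

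The genes outside the members whose log2 CPM followed the mean of the members most closely included further genes of the meninges. The 15 closest had an r between 0.87 and 0.96 over the 10 libraries, and 0.53% of genes outside the members reached 0.8. They were Tmem64, Ddr2, Vtn, Igf2, Tmem185a, Serpind1, Prdm6, Tmem109, Bmp7, Ptgs1, Prkd1, Slc5a5, Crabp2, Hsf2 and Asgr1, in falling order of r. Ddr2, a receptor for fibrillar collagen, had r = 0.95 and was at 10.4, 18.5, 20.8, 15.9 and 11.3 CPM in the knockout libraries, and at 15.1, 16.8, 12.6, 15.02 and 14.3 CPM in the wild-type libraries. Igf2, an imprinted growth factor gene of the meninges, had r = 0.93 and was at 210, 292, 321, 323 and 246 CPM in the knockout libraries, and at 294, 291, 280, 308 and 282 CPM in the wild-type libraries. In both genes knockout replicates 1 and 8 were the lowest of all 10 libraries. Bmp7, a bone morphogenetic protein gene (r = 0.89), was at 19.3, 31.0, 29.9, 27.9 and 20.2 CPM in the knockout libraries, and at 24.3, 25.2, 25.6, 23.7 and 22.3 CPM in the wild-type libraries. Vtn, which encodes vitronectin and marks pericytes, had r = 0.94, and Crabp2, a retinoic acid binding protein gene, 0.88. Most genes of their lists followed the members less closely. The median r was 0.28 over 13 mural cell genes and 0.05 over 16 tested retinoic acid pathway genes, of which 8 had a positive r. These r values describe 10 libraries that share their scaling and carry no test.

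Of 168 context genes tested outside the members, 10 (5.95%) were among the 100 closest, which are 0.646% of the 15478 genes outside the members: Vtn, Igf2, Ptgs1, Crabp2, Ogn, Col5a2, Mrc1, Fmod, Foxd1 and Foxc2. Ogn and Fmod encode proteoglycans of the lumican family, Col5a2 a chain of type V collagen, and Foxd1 and Foxc2 forkhead factors. Not all genes of their lists followed the members. The r was positive in 21 of 28 collagen genes (median 0.33) and 6 of 9 tested proteoglycan genes (0.49). It was positive in 12 of 14 tested mesenchymal transcription factor genes (0.46) and 6 of 9 tested prostaglandin genes (0.13), against 48.8% of genes outside the members. Mrc1, the mannose receptor gene of macrophages at the brain's borders, was at 8.98, 27.1, 30.4, 25.2 and 20.4 CPM in the knockout libraries, and at 19.9, 26.0, 17.9, 27.7 and 21.8 CPM in the wild-type libraries, and knockout replicate 1 was its lowest library too.

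Genes that act with the members were taken from lists. Of 28 genes of other collagens and collagen processing, 0 passed the edgeR test and 3 had an unadjusted p under 0.05, with a median log2 fold change of -0.07. These 3 were P4ha1, a collagen prolyl hydroxylase gene (0.20, SE 0.071), Col12a1 (-0.28, SE 0.11) and Col5a1 (0.20, SE 0.086). Of 9 tested small leucine-rich proteoglycan genes 0 passed and 0 had an unadjusted p under 0.05 (median 0.02), with Dcn, the decorin gene, at 0.24 (SE 0.19), Bgn, the biglycan gene, at -0.10 (SE 0.082) and Prelp at -0.21 (SE 0.19).

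In the retinoic acid pathway 0 of 16 tested genes passed and 5 had an unadjusted edgeR p under 0.05, with a median of -0.10. Crabp1, which encodes a retinoic acid binding protein, stood at 1.82 ± 1.19 CPM in knockout and 5.08 ± 1.88 CPM in wild type (SD, n = 5 each; log2 fold change -1.47, SE 0.35, edgeR adjusted p = 0.0993). Cyp26b1, which encodes a retinoic acid degrading enzyme, was at 19.0 ± 5.64 CPM in knockout and 31.5 ± 2.97 CPM in wild type (-0.73, SE 0.19, edgeR adjusted p = 0.228), and Aldh1a3, a relative of Aldh1a2, at 4.39 and 2.76 CPM (0.67, SE 0.22, edgeR adjusted p = 0.271). In the prostaglandin pathway 0 of 9 tested genes passed and 0 had an unadjusted p under 0.05 (median 0.06), with Ptges3 at 0.07 (SE 0.052), Ptges2 at 0.09 (SE 0.071) and Hpgd at -0.30 (SE 0.23).

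Of 10 tested relatives of the transporter members 0 passed and 2 had an unadjusted edgeR p under 0.05 (median -0.05): Slc6a8, a creatine transporter gene (0.17, SE 0.063), and Slc6a11, a GABA transporter gene (-0.12, SE 0.045). Slc22a3 was at -0.15 (SE 0.11). Of 14 tested mesenchymal transcription factor genes 0 passed and 2 had an unadjusted edgeR p under 0.05 (median -0.07), Foxq1 (-0.36, SE 0.13) and Zic4 (-0.40, SE 0.19), with Prrx1 at -0.20 (SE 0.10).

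Of the markers of other cell types in the tissue, 0 passed the edgeR test apart from the 2 choroid genes named above. 13 mural cell genes summed to 347 to 411 CPM in knockout and 345 to 381 CPM in wild-type libraries, with a median r to the members' mean of 0.28, and 2 genes had an unadjusted p under 0.05. Rgs5 (0.14, SE 0.060), Notch3 (-0.15, SE 0.067) and Higd1b (0.52, SE 0.32) led that list. 13 endothelial genes summed to 477 to 526 CPM in knockout and 463 to 504 CPM in wild-type libraries (median r 0.22, 2 genes at an unadjusted p under 0.05), led by Abcb1a (0.32, SE 0.099), Slco1c1 (0.14, SE 0.053) and Cldn5 (0.07, SE 0.062). The sum of the members, for comparison, ran from 576 to 1034 CPM in knockout and from 752 to 906 CPM in wild-type libraries. Most of that sum was Ptgds, with 361 of the 576 CPM in knockout replicate 1 and 729 of the 1034 CPM in knockout replicate 3.

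8 tested border macrophage genes summed to 21.1 to 58.3 CPM in knockout and 39.5 to 53.8 CPM in wild-type libraries, with a median r of 0.53 and 1 gene at an unadjusted p under 0.05. Ms4a7 (-1.04, SE 0.39), Pf4 (-0.40, SE 0.33) and Cd163 (0.39, SE 0.38) had the smallest p. 10 tested oligodendrocyte genes, a list relevant because these cells also express Ptgds, summed to 271 to 388 CPM in knockout and 271 to 427 CPM in wild-type libraries. Their median r to the members' mean was -0.47, with Aspa at -1.13 (SE 0.31), Mog at 0.39 (SE 0.19) and Mobp at 0.68 (SE 0.64), and 1 gene had an unadjusted p under 0.05. 5 tested red cell genes had a median r of -0.24 and 2 had an unadjusted p under 0.05, with Alas2 at -0.63 (SE 0.22), Hbb-bt at -0.50 (SE 0.19) and Hbb-bs at -0.36 (SE 0.17). Their sums were 386 to 693 CPM in knockout and 483 to 683 CPM in wild-type libraries, with the highest in knockout replicate 8.

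Collagen genes are also expressed by bone. Of 7 bone-forming cell genes, 2 passed the filter on low counts, Runx2 (0.31, SE 0.20) and Dmp1 (-0.16, SE 0.50), and 0 had an edgeR p under 0.05. The other genes had at most 22 counts in any library, and Bglap, the osteocalcin gene, had 0 in all 10. The tested bone genes summed to 3.67 to 5.81 CPM in knockout and 2.74 to 4.83 CPM in wild-type libraries. The highest sum was in knockout replicate 1, the library with the lowest members. The amount of meninges in each dissection was not recorded in the sources used here, and its part in the members' values was not tested.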

How the data were processed

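Total RNA of the cerebral cortex was sequenced. The authors deposited raw counts per gene with Entrez identifiers. The submitters' processing notes name HISAT2, featureCounts and the build mm39. The sources used here state neither versions nor annotation nor strand setting, so reads of overlapping genes on opposite strands cannot be told apart. Symbols came from RefSeq (GRCm38.p6), which matched 30648 of 30935 identifiers, with older symbols resolved through its synonyms.

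The genotype comparison used edgeR 4.0.16 in R 4.3.3 (filterByExpr, TMM, robust quasi-likelihood F test, genotype as the sole term) over 15488 genes, with Benjamini-Hochberg adjustment and a threshold of 0.05. DESeq2 1.42.0 and limma 3.58.1 were alternatives. SEs were derived from the F statistic. Correlations and ratios used log2 CPM with a prior count of 2. Pairs of libraries of one genotype differed by more than sampling noise (chi-square per degree of freedom 4.10 to 13.9), so each library counted as 1 replicate. Permutation tests between genotypes were exact over all assignments of libraries.

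The members and gene lists were chosen with earlier results of these data known. Named genes are the members, Ttr, the 3 tested genes with the smallest p in each of 14 context lists and any list gene past the threshold (2 in the shorter list of bone genes), and the 15 genes closest to the mean of the members, predicted genes passed over; Bglap, Rbfox1, the cortical neuron genes and the list genes among the 100 closest were named after their values were seen. The comparison of spread and the library order were chosen after the data were seen. The test was checked on simulated data. Precision is limited by counting error for low genes and by 5 libraries per genotype.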

Additional observations from a re-analysis of the deposited data

Results flagged for a closer look

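In 24 groups of 5 libraries (the 10 members, Ttr and the mean of the members, in each genotype), 0 had a highest or lowest library far from the others by Dixon's criterion (gap above 0.71 of the range), where chance gives about 1 in 20.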

How the results depend on the processing

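The call of 0 members held under RLE size factors, library totals, no filter and at least 50 counts in 5 libraries. It also held with DESeq2, limma-voom, non-robust dispersions, the choroid covariate and each library left out. With the replicate block, which compares replicates 5 and 6 alone, the count was also 0. It changed to 2 without knockout replicates 3, 5 and 6, which leaves the 2 knockout libraries that are lowest in every member. The members' median log2 fold change (-0.0057) was 0.21 with the replicate block, -0.54 with the choroid covariate and -0.33 without those 3 libraries, and -0.07 to 0.10 with 1 library left out. The 59 genes over all became 171 with no filter, 124 with DESeq2, 27 with the replicate block, 0 with the choroid covariate, 12 without the 3 libraries and 15 to 182 with 1 library left out. The choroid covariate overlaps with genotype, so its fit cannot separate the 2.

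Signs of values near 0 turned. With limma-voom Col1a1 was -0.028. With the replicate block, Col1a2 was 0.12, Ptgds 0.21, Slc13a4 0.062, Slc6a13 0.27 and Slc22a6 0.24. With the choroid covariate, Col1a1 was -0.60, Col3a1 -0.35, Lum -0.50, Foxc1 -0.32 and Aldh1a2 -0.24. Ttr, at -2.16 in the main fit and so not near 0, was 1.16 with this covariate. Ttr is itself on the list that the covariate averages. Its turn of sign there is therefore not read as a result about Ttr. Without the 3 libraries, Col1a1 was -0.41, Col3a1 -0.21, Lum -0.29, Foxc1 -0.13 and Aldh1a2 -0.15. With 1 library left out, Col1a1 ran from -0.12 to 0.11, Col1a2 from -0.17 to 0.062, Col3a1 from -0.041 to 0.12, Ptgds from -0.18 to 0.10, Slc6a13 from -0.074 to 0.061 and Slc22a6 from -0.16 to 0.039; the cause was not tested. Ttr passed the test with limma-voom (-5.99). With the replicate block Ttr was -6.58, from replicates 5 and 6 alone, where the knockout libraries had 0.490 and 5.07 CPM. That fit leaves almost no residual replication, so its p is not counted as a call.

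The count of Ttr ratios, 10, was 0 without the 3 libraries, where 21 assignments remain, and 0 to 10 with 1 library left out. The median r of 0.62 was 0.38 without knockout replicates 1 and 8 (an alternative added after the data were seen) and 0.54 to 0.69 with 1 library left out. The count of members with the larger SD in knockout was 6 without the 3 libraries and 8 to 10 with 1 library left out. The alternatives for the spread and for the choroid plexus list were added after the data were seen. Of the 15 closest genes, 12 to 15 were shared across other prior counts, scalings and centring within genotype.

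Only replicate numbers 5 and 6 occur in both genotypes. Their deviations had r = -0.03 and -0.06, so the numbers do not show pairing, and the replicate block compares these libraries alone.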
